A study of Homo sapiens with 36 samples.

Results

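The transcripts described here come from 44 interferon-stimulated and DNA-sensing genes, chosen by name from a fixed list and followed across the 12 conditions of a study of platinum resistance in ovarian cancer cells. All 44 were found among the 57820 genes of the count table, whose Ensembl identifiers were matched to current gene symbols. The older symbol of CGAS is MB21D1 and that of STING1 is TMEM173. A2780 is a human ovarian cancer cell line. The sensitive parental cells are called wt, their cisplatin-resistant counterpart, made by chronic exposure of the parental cells to cisplatin, is called cis, and cis SSP cells grew out of cis cells under serine and glycine deprivation and had regained the serine synthesis pathway. Each of the 3 lines was grown in complete medium or in homemade RPMI medium with dialyzed serum lacking serine and glycine (-SG), and each with or without carboplatin (carbo), with 3 libraries per condition and 36 in all. The labels write the carboplatin dose as 6 M, and no other source used here states the dose or the duration for these libraries by name, the methods giving a micromolar dose and a default day for other assays of these cells. Each line is 1 cell population, so a difference between lines cannot be told apart from a difference between these populations that arose for other reasons, and since the legends of the study describe its RNA-seq libraries as technical replicates, the p-values below measure only the spread between libraries.

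Interferons are secreted proteins that warn cells of infection. Type I interferons bind the IFNAR1 and IFNAR2 receptor, and the kinases JAK1 and TYK2 then activate a complex that holds STAT2 and IRF9 and binds a DNA element called ISRE in the promoters of target genes, whereas interferon gamma acts through JAK1 and JAK2 on an element called GAS. RNA in the cytosol is sensed by RIG-I, encoded by RIGI, and by MDA5, encoded by IFIH1, and DNA in the cytosol by cGAS, whose product activates STING. Platinum drugs crosslink DNA, and damaged DNA that reaches the cytosol can engage cGAS.

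Each library held between 13074937 and 20441582 counts on genes. Levels are given as CPM, counts scaled to the effective size of the library. The 10 markers of epithelial and ovarian carcinoma cells summed to only 1.83 to 2.44 CPM in the wt libraries, against 16.7 to 20 CPM in the cis libraries, and KRT7 reached at most 0.056 CPM in any library, so these markers did not identify the labelled cell type. Among immune cell markers PTPRC, which marks leukocytes, reached at most 0.066 CPM in any library and CD3E, a T cell gene, had no counts. Others on that list of 12 did have counts. The list summed to 2.52 to 2.77 CPM in wt and 16.5 to 16.9 CPM in wt with carboplatin. In the latter ITGAM had 128 to 170 counts and FCER1G 103 to 108. The first cis SSP library and the second cis SSP -SG library stood apart from their replicates along transcript length. Against the mean of the other libraries of the condition, their log2 level fell by 0.49 and 0.50 per doubling of length. The next library, the second wt -SG carbo library, fell by 0.18. The counts of calls in cis SSP cells that rest on them are given with and without these 2 libraries, a comparison chosen after the data had been seen. In 2 of the 3 cis -SG carbo libraries 17.9% and 14.9% of reads lay on no feature, against at most 9.31% in any other library.

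The promoters of 6 genes are shown because these carry the results below, BST2, GBP1 and IFITM1 for the difference between the lines, IRF1 for carboplatin, and IFIT1 and HERC5 for both. The letters are from RefSeq (GRCh38.p14), which held a promoter window for 32 of the 44 genes, and each run covers the 140 bases before the start of transcription, 5′ to 3′ on the strand of the gene. Capitals mark matches on either strand to the ISRE core, written as GAAA, any 2 bases, GAAA, or to the GAS core, written as TTC, any 3 bases, GAA, and matches may overlap.
BST2, chr19:17405631-17405770, minus strand: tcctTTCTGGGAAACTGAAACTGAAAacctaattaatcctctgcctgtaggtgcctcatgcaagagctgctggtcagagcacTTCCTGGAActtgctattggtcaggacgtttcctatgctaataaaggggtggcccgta
GBP1, chr1:89065209-89065348, minus strand: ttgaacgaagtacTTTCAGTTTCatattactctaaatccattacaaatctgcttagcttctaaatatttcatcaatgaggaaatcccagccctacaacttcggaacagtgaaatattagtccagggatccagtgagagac
IFITM1, chr11:313900-314039, plus strand: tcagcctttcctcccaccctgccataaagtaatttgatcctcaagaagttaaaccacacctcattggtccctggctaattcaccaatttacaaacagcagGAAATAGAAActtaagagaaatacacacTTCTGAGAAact
IFIT1, chr10:89392483-89392622, plus strand: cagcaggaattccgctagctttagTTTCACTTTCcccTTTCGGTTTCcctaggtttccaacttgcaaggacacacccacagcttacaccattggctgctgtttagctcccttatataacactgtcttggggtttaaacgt
HERC5, chr4:88456979-88457118, plus strand: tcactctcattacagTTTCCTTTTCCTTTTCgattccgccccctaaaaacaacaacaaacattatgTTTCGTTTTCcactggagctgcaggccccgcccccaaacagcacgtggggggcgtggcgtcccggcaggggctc
IRF1, chr5:132490774-132490913, minus strand: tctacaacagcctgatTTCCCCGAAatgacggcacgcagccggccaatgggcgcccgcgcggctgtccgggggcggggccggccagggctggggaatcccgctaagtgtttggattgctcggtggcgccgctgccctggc
The BST2 run holds 2 overlapping ISRE cores and 2 GAS cores, 1 of them overlapping the ISRE cores. GBP1 holds 1 ISRE core, IFIT1 2 and HERC5 3, of which the first 2 overlap. IFITM1 holds 1 ISRE core and 1 GAS core before its start, and IRF1 holds 1 GAS core and no ISRE core. Over the whole window of 250 bases before and 50 after the start, 21 of the 32 matched genes (65.6%) had an ISRE core and 9 (28.1%) a GAS core. Counted by window, these were 58.1% and 23.3% of the 43 windows of these genes, against 3.57% and 7.66% of all 35116 promoter windows. A match describes letters and not a bound site.

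Of the 44 genes, 40 had at least 10 counts in at least 1 library and 22 in every library, 31 reached 5 CPM in at least 1 condition, and 8 stayed under 1 CPM in every condition. Divided by the length of the transcript in kilobases, the highest levels in wt were those of IFITM3, a membrane protein that blocks virus entry, at 695 ± 21 CPM per kb (SD, n = 3), BST2, the virion tether tetherin, at 280 ± 6.03, and IFITM1 at 162 ± 2.23. In cis cells IFITM3 still led at 266 ± 5.70 CPM per kb, followed by IFIT1, which binds RNA lacking cap methylation, at 50.9 ± 0.963, and by UBE2L6, the conjugating enzyme for ISG15, at 49.2 ± 1.28. Both DNA-sensing genes were near 0 in all 3 lines, with at most 8 counts of CGAS and 7 of STING1 in any library. MX2 reached 3 counts, SAMD9 6, IFI44 12, OAS1 13 and IFI44L 16 counts in their highest library. Even so, OAS1, an oligoadenylate synthetase, held 28 counts over the 3 untreated wt libraries and 1 in cis, a ratio of 26.1 after scaling for depth (95% exact interval for counting error 4.31 to 1070), and IFI44 held 2 in wt and 19 in cis, a ratio of 10.2 (2.46 to 90.3).

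**Figure D1:**
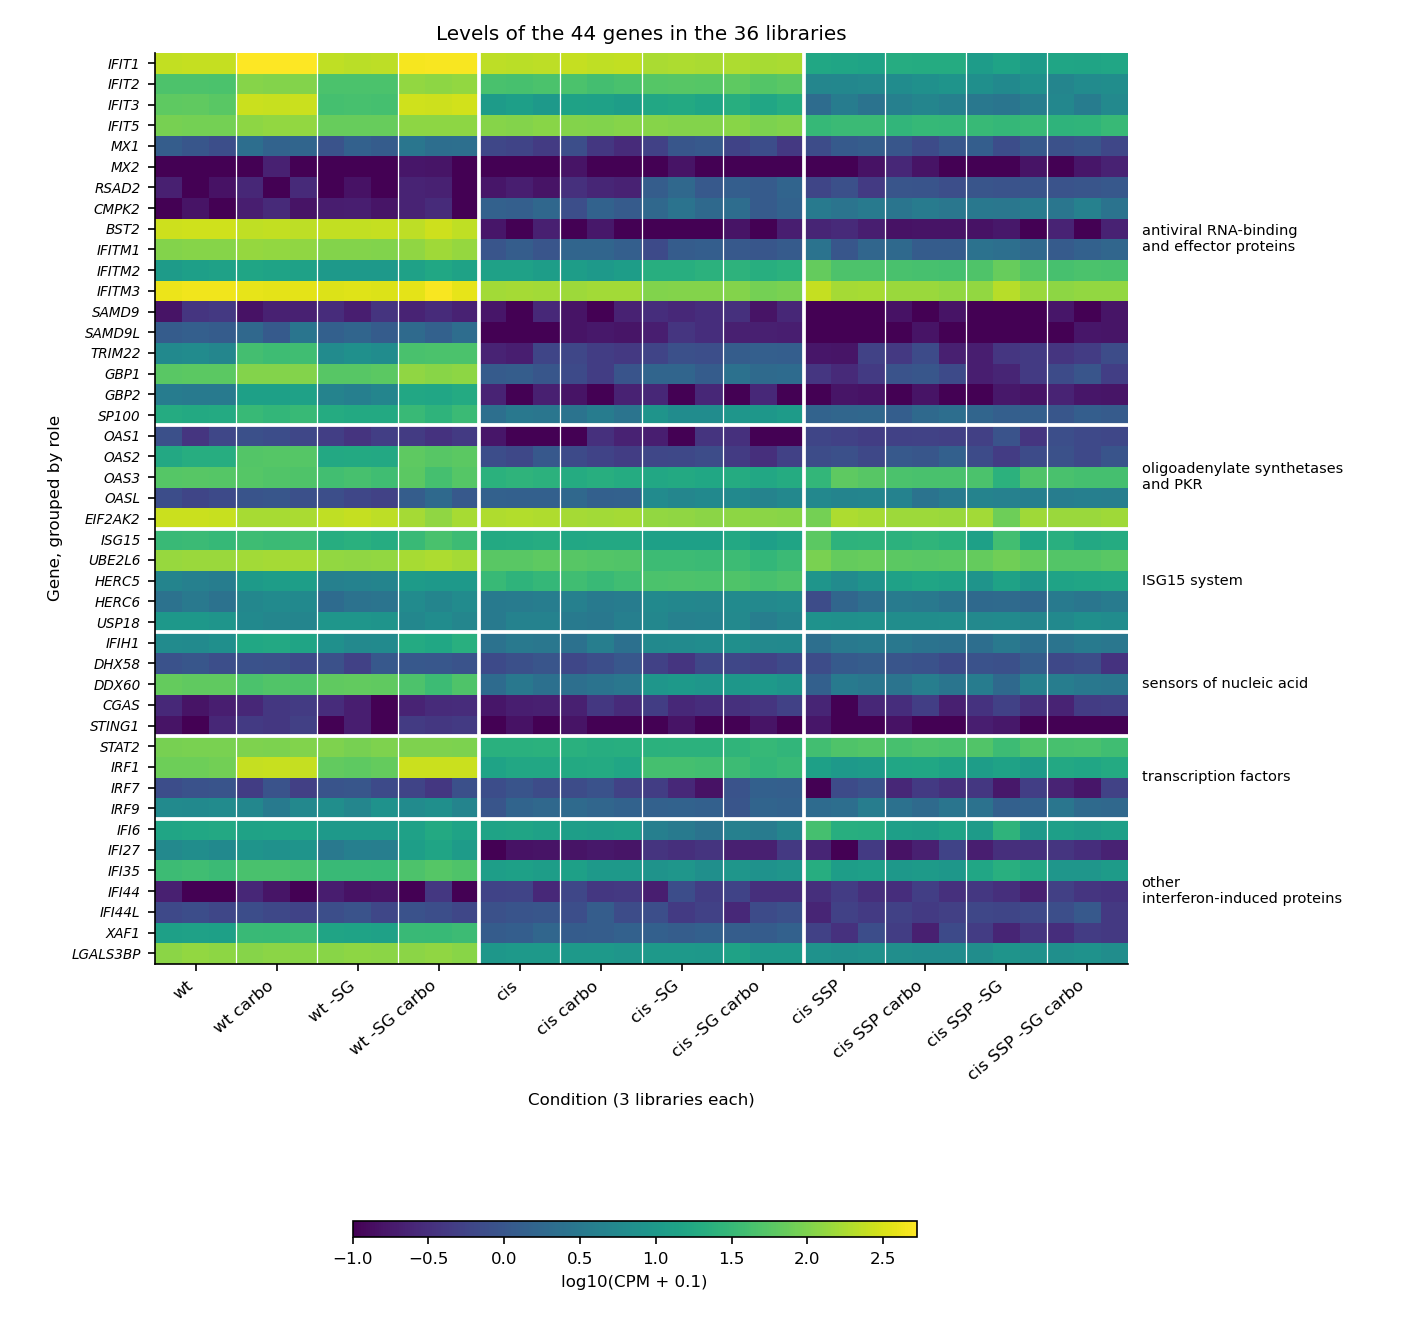
Heat map of the 44 genes (lines, grouped by role) in the 36 libraries (columns, 3 per condition), colour giving log10 of CPM + 0.1. BST2 is bright in the 12 wt libraries and dark in the other 24, and IFIT1 is bright in wt and cis but duller in cis SSP.

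The summed level of the 44 genes fell into 2 ranges that did not meet. It lay between 2045 and 3292 CPM in the 12 wt libraries and between 618 and 997 CPM in the 24 libraries of cis and cis SSP cells. Within wt, the sum was 2296 to 2371 CPM without and 3091 to 3112 CPM with carboplatin in complete medium. In cis cells it was 978 to 997 without and 941 to 972 CPM with carboplatin. In a bulk sample a smaller share of cells expressing a gene and less RNA per cell cannot be told apart. Without IFIT1, IFITM3, BST2 and EIF2AK2 the other 40 genes summed to 1112 to 1142 CPM in wt, 1793 to 1799 CPM in wt with carboplatin and 409 to 425 CPM in cis.

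**Figure D2:**
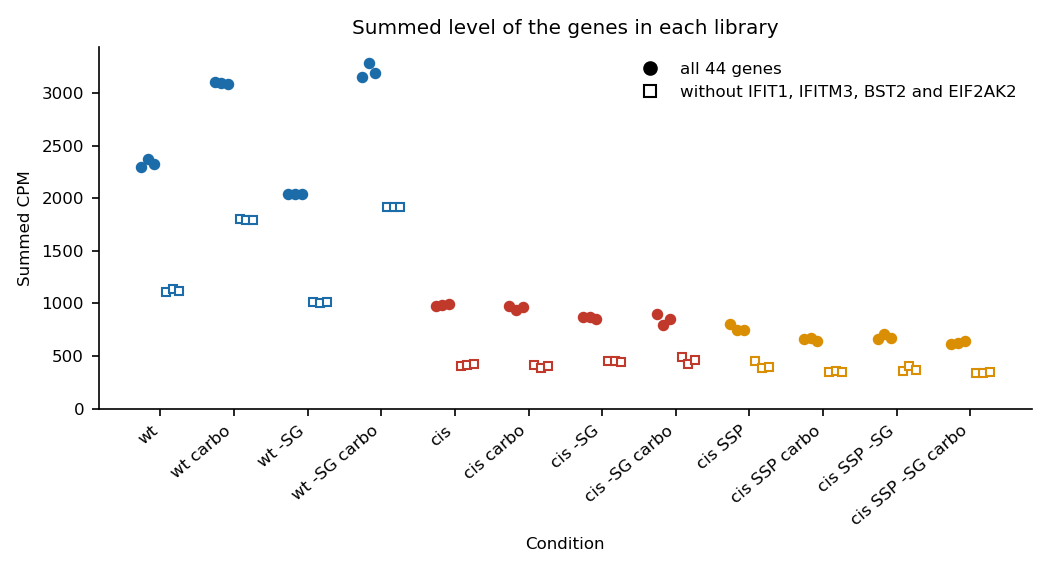
Summed CPM of all 44 genes (filled circles) and of the 40 genes without IFIT1, IFITM3, BST2 and EIF2AK2 (open squares), each point 1 library, by condition. The wt libraries with carboplatin reach 3091 to 3292 CPM for all 44 genes, and no cis or cis SSP library exceeds 997.

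The comparison of untreated cis with untreated wt cells asked how the resistant line differs from its parent before any drug is added. Of the 44 genes, 28 were lower in cis and 5 higher, 4 were tested and not called, and 7 had too few counts to test. Among all 14431 genes tested in this comparison 39.1% were lower and 39.4% higher (edgeR's quasi-likelihood test, adjusted p under 0.05). The median log2 fold change of the 37 tested was -1.29, and that of all genes was -0.004. Genes that passed the filter only through their level in wt had to differ, so these counts describe the set.

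By role, 12 of the 18 antiviral effectors were lower and 2 higher. In wt the BST2 level was 274, 286 and 280 CPM, and in cis it was 0.066, 0 and 0.113 CPM. That is 15429 counts in the 3 wt libraries against 3 in cis, a ratio of 4790 (1640 to 23200). No library of cis or cis SSP cells, in either medium and with or without carboplatin, held more than 3 BST2 counts. IFITM1, another restriction factor of virus entry, had 107, 110 and 109 CPM in wt against 0.858, 1.14 and 0.846 CPM in cis, a log2 fold change of -6.85 ± 0.0837 (SE; edgeR adjusted p = 7.94e-47). GBP1, an interferon-induced GTPase, was at 58.6, 61.1 and 60.5 CPM against 1.06, 1.14 and 0.902 CPM, a log2 fold change of -5.89 ± 0.0975. GBP2 was at 3.15 to 3.54 CPM in wt and at 4 counts over the 3 cis libraries, a ratio of 42.4 (16.3 to 157). TRIM22, a ubiquitin ligase with antiviral activity, was at 5.76, 6.05 and 4.93 CPM against 0.132, 0.108 and 0.507 CPM. For each of these genes, chosen among the largest falls, every wt library lay above every cis library. The groups did not overlap for 33 of the 37 tested in all, and the share over all genes is not given here.

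The neighbours of BST2 and IFITM1 in family or function did not all move like them. IFITM3 was lower in cis by less (log2 fold change -1.42 ± 0.0265, from 424 to 162 CPM), and IFITM2, in the same cluster on chromosome 11, was not called (0.04). The IFITM genes are near-copies of each other, and how reads with several alignments were counted is not given in the sources used here, so the split of counts among them is uncertain. Of the 4 IFIT genes, which lie side by side on chromosome 10, IFIT3 had a log2 fold change of -2.49 ± 0.062 in cis. Its CPM were 63.0, 63.6 and 59.4 in wt and 10.8, 12.5 and 10.3 in cis. IFIT1 went from 238, 246 and 246 CPM in wt to 220, 214 and 222 CPM in cis, a log2 fold change of only -0.19 ± 0.0259 (edgeR adjusted p = 1.42e-08). IFIT5 was higher by 0.30 ± 0.0336. The listed genes of this cluster thus did not differ between the lines by the same amount or in the same direction. SP100, a component of PML nuclear bodies, had 19.6, 17.9 and 18.5 CPM in wt against 2.18, 3.03 and 2.82 CPM in cis. SAMD9L had no count in the cis libraries and 63 in wt, which makes it at least 6.48-fold lower against a floor of 3 counts per library.

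Among the enzymes that sense double-stranded RNA by making oligoadenylates, OAS2 had 17.4, 20.7 and 20.5 CPM in wt against 0.660, 0.541 and 0.959 CPM in cis, a log2 fold change of -4.78 ± 0.152. OAS3 was lower by less (-1.16 ± 0.051), and EIF2AK2, which encodes the kinase PKR, less still (-0.48 ± 0.0265). DDX60, a helicase that promotes RIG-I signalling, had 68.4, 63.8 and 65.6 CPM in wt against 1.91, 3.03 and 2.26 CPM in cis, a log2 fold change of -4.79 ± 0.0859. IFIH1 had a log2 fold change of -1.18 ± 0.143. Of the other interferon-induced proteins, XAF1, an antagonist of the apoptosis inhibitor XIAP, was at 12.8 to 13.3 CPM in wt against 1.12 to 1.58 CPM in cis, and LGALS3BP, a secreted glycoprotein, at 119 to 130 against 9.11 to 10 CPM. IFI27 held 328 counts in wt and 2 in cis, a ratio of 153 (41.9 to 1270). The transcription factors IRF1, IRF9 and STAT2 were lower by 2.37, 2.15 and 2.01 log2 units, and IRF7, the master regulator of type I interferon induction, was not called at under 1 CPM in both lines.

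Of the 5 genes that were higher in cis, HERC5, the main ligase that attaches ISG15 to proteins, had 4.59, 4.11 and 3.67 CPM in wt against 31.7, 25.8 and 30.4 CPM in cis, a log2 fold change of 2.79 ± 0.0976 (edgeR adjusted p = 3.17e-26). ISG15 itself, the ubiquitin-like modifier, and UBE2L6 were lower, by 0.81 and 1.29 log2 units, and so was USP18, the protease that removes ISG15 and restrains the type I receptor, by 1.21. Hence the parts of the ISG15 system differed between the lines in opposite directions. HERC6 had a log2 fold change of 0.37 ± 0.166 (edgeR adjusted p = 0.0384), a call that 5 of 6 repeats without 1 library did not make. OASL was at 0.499 to 0.664 CPM in wt and 1.30 to 1.32 CPM in cis, and CMPK2 had 1 count in wt and 72 in cis (ratio 77.3, 13.4 to 3100). Both had a mean under 20 counts over the compared libraries and are named only to complete the 5 with IFIT5.

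**Figure D3:**
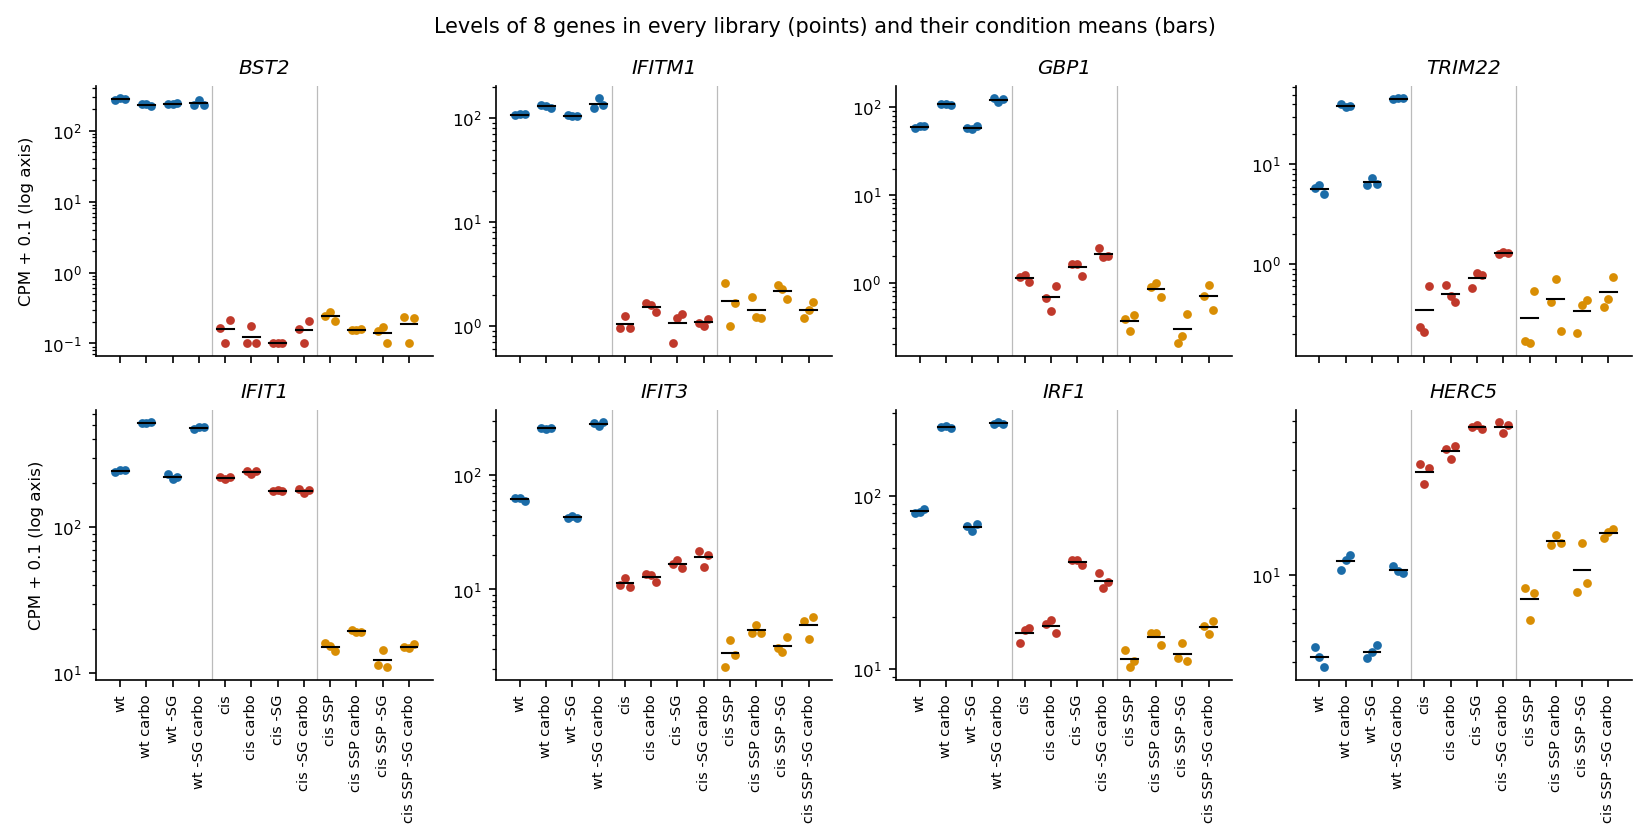
CPM + 0.1 on a log axis of BST2, IFITM1, GBP1, TRIM22, IFIT1, IFIT3, IRF1 and HERC5 in each library (points) of the 12 conditions, with bars at the condition means. BST2 is at 223 to 286 CPM in wt libraries and at or below 0.179 CPM in the others, and HERC5 is lowest in wt without carboplatin at 3.67 to 4.69 CPM.

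The signalling genes upstream went different ways. Of 15 genes for interferon receptors and signalling 14 were tested, of which 7 were higher in cis, 5 lower and 2 not called. Over all genes tested 39.4% were higher and 39.1% lower, so this split was not far from that of all genes. JAK1, the kinase of every interferon receptor, stood at 24.7 ± 1.06 CPM in wt against 1102 ± 23.4 CPM in cis, a log2 fold change of 5.45 ± 0.0328 (edgeR adjusted p = 6.12e-59), and PTPN6, a phosphatase that damps JAK signalling, was higher by 2.37. SOCS3, a feedback inhibitor, had a log2 fold change of -6.35. Beyond signalling, MLKL, the effector of necroptosis, had a mean of 0.128 CPM in the wt libraries and of 19.7 CPM in those of cis, and GBP4, another GTPase of the GBP family, held 943 counts in wt and 2 in cis, a ratio of 439 (121 to 3630). Of 21 interferon genes only IFNG, which encodes interferon gamma, had enough counts to test. It stood at 5.51 ± 0.705 CPM in wt and had no counts in cis, which makes it at least 31.2-fold lower there against 3 counts per library. IFNB1, the gene for interferon beta, had at most 1 count in any of the 36 libraries. RIGI had 31.6 ± 0.555 CPM in wt against 11.2 ± 0.191 CPM in cis. Of 39 further interferon-stimulated genes 33 were tested, of which 23 were lower and 8 higher. Of 19 genes for nucleic acid sensing and its restraint 16 were tested, of which 5 were lower and 7 higher. The split of the latter list was not far from that of all genes either. In wt and cis the stromal marker COL1A2 also differed, at 370 ± 13.5 against 0.063 ± 0.066 CPM. Of 9 stromal markers 4 were lower and 1 higher, with sums of 1946 to 2018 against 3560 to 3666 CPM. The sums were mostly COL3A1, at 25517 to 27126 counts in wt and 53857 to 65865 in cis. Of 12 immune markers 1 was tested and was lower, with sums of 2.52 to 2.77 against 0.595 to 1.24 CPM. Listed genes that passed the filter only through their level in either line had to differ, so these counts describe the lists. The part of these marker lists in the differences above was not tested.

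Carboplatin was next compared with no drug in wt cells, to see how the sensitive line responded. Of the 44 genes 23 were higher and 8 lower with carboplatin, where 38.9% of all 14639 genes tested were higher and 39.0% lower. The median log2 fold change of the 36 tested was 0.39, and that of all genes was -0.001. This comparison and the one between the lines share the 3 untreated wt libraries, so the values are set side by side and no relation between them is drawn.

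TRIM22 had the largest change, from 5.76, 6.05 and 4.93 to 40.7, 37.2 and 38.2 CPM, a log2 fold change of 2.81 ± 0.0761 (edgeR adjusted p = 5.91e-175). IFIT3 went from 63.0, 63.6 and 59.4 to 260, 255 and 260 CPM, a change of 2.08 ± 0.0284. IFIT2 and IFIT1 changed by 1.21 ± 0.0362 and 1.12 ± 0.02, IFIT1 from 238 to 246 CPM up to 520 to 524 CPM, and IFIT5 by 0.56 ± 0.03. All 4 listed IFIT genes thus rose in wt. In the count table IFIT2 and IFIT3 share 65 and 94 exon bases with LIPA on the opposite strand and IFIT2 shares 524 with an unnamed gene on its own strand, and whether the counting used strand is not given in the sources used here. GBP2 rose from 3.54, 3.22 and 3.15 to 12.8, 13.1 and 13.2 CPM (2.00 ± 0.113), and GBP1 from 58.6 to 61.1 up to 107 to 108 CPM (0.86 ± 0.0343). SP100 rose from 17.9 to 19.6 up to 28.7 to 32.3 CPM. Of the 18 effectors 12 rose.

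OAS2 rose from 17.4, 20.7 and 20.5 to 52.9, 53.9 and 55.1 CPM (1.48 ± 0.0524), while OAS3 was not called at -0.07. IFIH1 rose by 1.38 ± 0.0915, XAF1 by 1.36 ± 0.0648 and HERC5 by 1.48 ± 0.111. IRF1, the interferon-responsive transcription factor that also answers to interferon gamma, went from 79.2, 80.2 and 84.1 to 250, 252 and 247 CPM, a log2 fold change of 1.64 ± 0.0272 (edgeR adjusted p = 2.49e-300). IFI27 rose from 5.54 to 6.49 up to 7.42 to 8.45 CPM.

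The 8 genes that fell did so by less than the 10 genes that rose most, while some of the other rises were as small as these falls. USP18 fell from 9.52, 9.54 and 8.50 to 5.63, 5.01 and 4.78 CPM (log2 fold change -0.81 ± 0.111). EIF2AK2 fell from 252 to 264 CPM down to 169 to 179 CPM (-0.56 ± 0.0236), and DDX60 from 63.8 to 68.4 down to 45.9 to 51.3 CPM (-0.42 ± 0.0407). IRF9, the DNA-binding part of the complex on the ISRE, had a log2 fold change of -0.34 ± 0.128, and BST2, IFI6, IFITM3 and LGALS3BP had changes between -0.26 and -0.10. The high level of BST2 in wt was therefore not raised further by the drug.

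**Figure D4:**
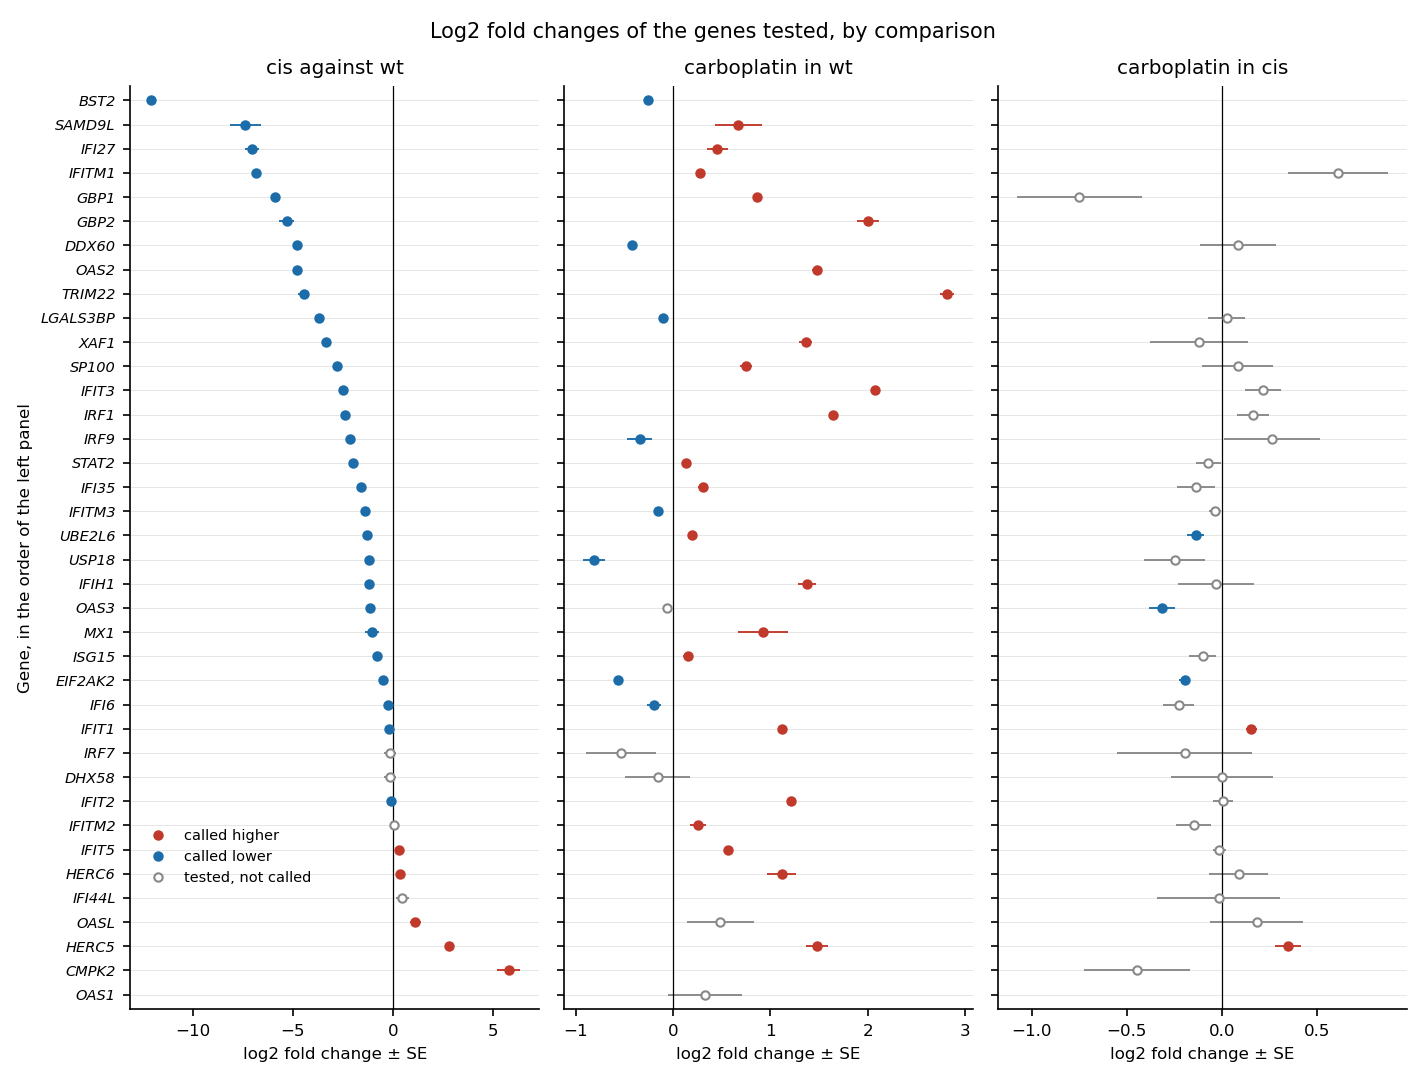
Log2 fold change ± SE of each gene tested, in the order of the left panel, for cis against wt, carboplatin in wt and carboplatin in cis. The horizontal scales differ between panels, red marks genes called higher (5, 23 and 2 of those tested), blue those called lower (28, 8 and 3) and open circles those not called, and the fitted values of BST2, SAMD9L, IFI27, GBP2 and CMPK2 in the left panel depend on the prior count since 1 line had almost no counts.

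Outside the 44 genes, carboplatin in wt raised 26 of 39 other interferon-stimulated genes and lowered 4. It raised 11 of 15 receptor and signalling genes and lowered 2, where 38.9% of all genes tested were higher and 39.0% lower. TNFSF10, which encodes the death ligand TRAIL, rose by 3.31 ± 0.218 on the log2 scale, ISG20, an exonuclease, by 3.05 ± 0.127 and the chemokine CXCL10 by 2.99 ± 0.181, from 0.891 to 7.04 CPM. RIGI rose from 31.6 ± 0.555 to 82.4 ± 2.80 CPM and IFNG from 5.51 ± 0.705 to 9.15 ± 0.354 CPM, whereas IFNB1 had no counts in either. RNASEH2A, a subunit of the ribonuclease that clears RNA from DNA, had a log2 fold change of -1.57 and the DNA exonuclease TREX1 of -0.95, and of 19 genes for nucleic acid sensing and its restraint 8 rose and 6 fell. Of 12 immune markers the 3 tested rose, ITGAM from 0.438 to 8.40 CPM, FCER1G from 1.40 to 6.07 and TYROBP from 0.293 to 1.53, and the list summed to 2.52 to 2.77 CPM without and 16.5 to 16.9 CPM with the drug. PTPRC stayed at 0.020 CPM or less on average in both and CD3E at 0. Of 10 epithelial markers 3 of 4 tested rose, among them KRT8 from 0.346 to 5.56 CPM, and the list summed to 1.83 to 2.44 without and 16.6 to 17.8 CPM with the drug. Of 9 stromal markers 2 rose and 3 fell, with COL1A1 at 163 CPM without and 855 CPM with the drug, and the list summed to 1946 to 2018 and 2692 to 2731 CPM. Markers that passed the filter only through their level with the drug had to differ, so these counts describe the lists. The part of these lists in the changes above was not tested.

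The same drug in cis cells gave few calls, in the set and over all genes. Of the 44 genes 30 were tested, of which 2 were higher, 3 lower and 25 not called. Over all 13458 genes tested 9.27% were higher and 10.8% lower, so these counts lay near the share of all genes. HERC5 went from 31.7, 25.8 and 30.4 to 37.2, 33.4 and 38.2 CPM (log2 fold change 0.35 ± 0.069, edgeR adjusted p = 0.000926) and IFIT1 from 220, 214 and 222 to 244, 231 and 242 CPM (0.16 ± 0.0287). OAS3, EIF2AK2 and UBE2L6 fell by 0.32, 0.20 and 0.14, the last in 1 of 6 repeats without 1 library. Among the genes that rose most in wt, IFIT3 was at 10.3 to 12.5 CPM without and 11.5 to 13.6 CPM with carboplatin, IRF1 at 14.1 to 17.1 and 16 to 19 CPM, GBP1 at 0.902 to 1.14 and 0.377 to 0.810 CPM and TRIM22 at 0.108 to 0.507 and 0.312 to 0.517 CPM. The ranges of IFIT3, IRF1 and TRIM22 overlapped between the conditions. In an edgeR fit over all 36 libraries at once none of the 5 calls was made (5 genes had an unadjusted p under 0.05), and DESeq2 made 4. RIGI rose by 0.30 ± 0.0836, and 2 of the 39 further interferon-stimulated genes rose and 2 fell.

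The difference between these responses was tested directly, as the change with carboplatin in cis minus that in wt. It was called for 24 of the 44 genes, negative for 20 and positive for 4, where 27.2% of the 15300 genes tested were called negative and 30.3% positive. Over all genes 57.6% were called in either direction, and 38 of the 44 were tested. IFIT3 had a difference of -1.85 ± 0.0908 (edgeR adjusted p = 4.65e-26), IRF1 of -1.47 ± 0.08, IFIT2 of -1.2 ± 0.0614, HERC5 of -1.13 ± 0.135 and IFIT1 of -0.96 ± 0.0344. Values as far from 0 were fitted for TRIM22 (-2.11 ± 0.586), OAS2 (-2.05 ± 0.381), GBP1 (-1.60 ± 0.3), XAF1 (-1.48 ± 0.261), IFIH1 (-1.40 ± 0.215) and HERC6 (-1.02 ± 0.212). For TRIM22, OAS2 and GBP1 these rest on low counts in cis, at most 9, 17 and 21 in any untreated or treated cis library. All these calls held in each of the 12 repeats that left out 1 library except that of TRIM22, which held in 11. In a fit over all 36 libraries 15 differences were called in place of 24. For USP18 (0.57 ± 0.194), DDX60 (0.51 ± 0.196), EIF2AK2 (0.37 ± 0.0387) and IFITM3 (0.13 ± 0.0377) the difference was positive, their falls in wt exceeding their changes in cis. IFIT1 was at 238 to 246 and 214 to 222 CPM without the drug in wt and cis, and at 520 to 524 and 231 to 244 CPM with it. BST2, GBP2 and IFI27 had too few counts in cis for their response there to be measured, and their differences were not called.

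**Figure D5:**
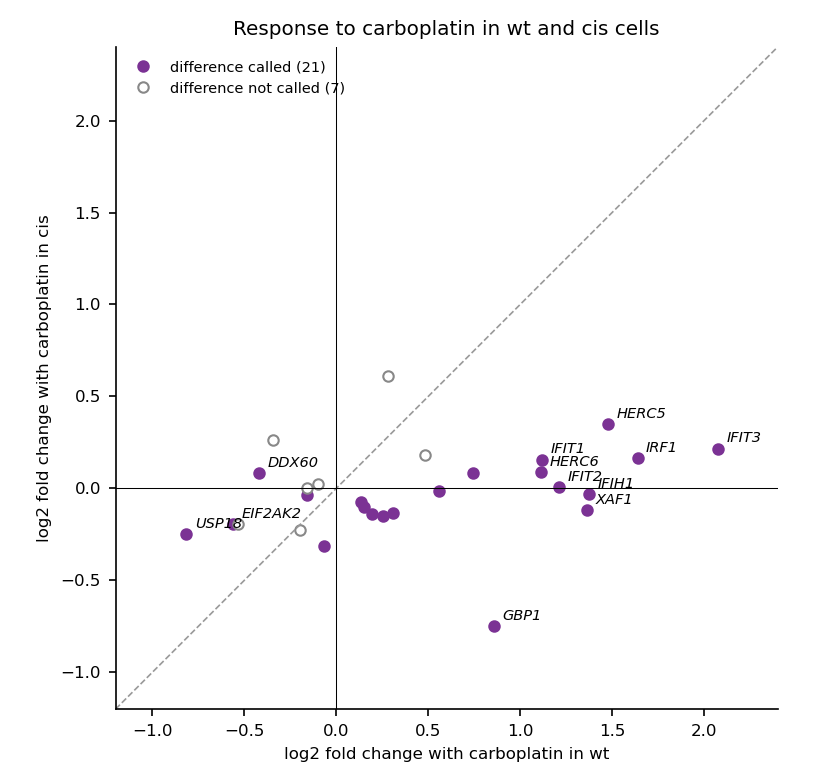
Log2 fold change with carboplatin in wt (horizontal) and in cis (vertical) for the 28 genes with a value in both, the dashed line marking equal change. Filled points are the 21 genes whose difference was called and open points the 7 whose difference was not, and IFIT3 lies at 2.08 in wt and 0.22 in cis.

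The cis SSP cells were then compared with the cis cells they grew out of, both untreated. With all libraries, 7 of the 44 genes were higher and 11 lower in cis SSP, against 15.8% and 13.3% of the 13714 genes tested. Without the first cis SSP library 12 were higher and 12 lower, against 32.9% and 32.5% of the genes tested, and these included all 7 and all 11. This comparison shares the untreated cis libraries with the comparison of cis and wt.

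All 4 listed IFIT genes were lower in cis SSP. IFIT1 was at 220, 214 and 222 CPM in cis and at 16.1, 15.3 and 14.1 CPM in cis SSP, a log2 fold change of -3.83 ± 0.107 (edgeR adjusted p = 1.38e-05) and -3.86 ± 0.0506 without the library named. IFIT2 went from 44.1, 44 and 46.8 to 5.02, 5.15 and 5.49 CPM (-3.08 ± 0.105). IFIT3 went from 10.3 to 12.5 CPM to 1.98, 3.53 and 2.55 CPM (-2.02 ± 0.223) and IFIT5 from 108 to 114 CPM to 31.2, 34.7 and 34.4 CPM (-1.70 ± 0.1). Without that library the changes of IFIT2, IFIT3 and IFIT5 were -3.04, -1.85 and -1.64. HERC5, which was high in cis, was lower in cis SSP at 8.56, 6.10 and 8.15 CPM (-1.92 ± 0.161, and -1.98 ± 0.116 without the first). SP100, IRF1 and LGALS3BP were lower by 0.76, 0.48 and 0.36, and by 0.69, 0.56 and 0.37 without that library, and these calls were lost in at least 4 of 6 repeats without 1 library.

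Other members were higher in cis SSP. IFITM2 was at 13.4, 13.3 and 11.6 CPM in cis and 68.4, 47.1 and 47.9 CPM in cis SSP (2.11 ± 0.177), and without the first of these libraries the change was 1.94 ± 0.071. OASL was at 1.30 to 1.32 CPM in cis and 4.73 to 5.37 CPM in cis SSP (1.94 ± 0.142), STAT2 at 23 to 23.9 and 39.3 to 52.9 CPM (1.04 ± 0.139) and USP18 at 3.37 to 4.38 and 7.24 to 7.85 CPM (0.92 ± 0.141). CMPK2, a mitochondrial nucleotide kinase, changed by 1.15 ± 0.187, and it shares 351 exon bases with RSAD2, the antiviral enzyme viperin, on the opposite strand. Without the first cis SSP library OASL, STAT2, USP18 and CMPK2 changed by 1.90, 1.17, 0.90 and 1.14. OAS3 changed by 1.01 ± 0.288 with all libraries and by 1.28 ± 0.0602 without the library that stood apart. IFI6 changed by 0.99 ± 0.281 with all libraries and by 0.61 ± 0.0814 without the library that stood apart, where its CPM were 41.4 in that library and 21.2 and 20.5 in the other 2. ISG15 was not called with all libraries, at 60.8, 25.4 and 26 CPM against 18.1 to 20 CPM in cis, and was higher by 0.48 ± 0.0731 without the first. BST2, TRIM22, GBP2 and SAMD9L, which were near 0 in cis, stayed near 0 in cis SSP, BST2 at 0.141, 0.179 and 0.109 CPM. JAK1 was at 1102 ± 23.4 CPM in cis and 565 ± 157 CPM in cis SSP (-0.94 ± 0.225), and at 648 and 664 CPM without the first of these libraries (-0.71 ± 0.0297). Of the 39 further interferon-stimulated genes 3 were higher and 6 lower, and 10 and 11 without that library. Over all genes tested the shares were 15.8% and 13.3%, and 32.9% and 32.5% without it. Of the stromal markers 4 of 5 tested were higher in cis SSP, and all 5 without that library, with DCN at 0.637 CPM in cis and 24.3 CPM in cis SSP and the list at 3560 to 3666 and 3114 to 3916 CPM. Of 3 epithelial markers tested 1 was higher, and that list summed to 16.7 to 20 and 9.75 to 16 CPM. In both lines COL3A1 held most counts of the stromal list and KRT18 most of the epithelial list. No immune marker had enough counts to test. Markers that passed the filter only through their level in cis SSP had to differ, so these counts describe the lists. The part of these lists in the differences above was not tested.

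In cis SSP cells carboplatin raised HERC5 and no other of the 44 genes in the edgeR fit of the 6 libraries, where 1.97% of the 13885 genes tested were higher and 0.749% lower. HERC5 was at 8.56, 6.10 and 8.15 CPM without and 13.6, 15 and 13.8 CPM with the drug (0.89 ± 0.15, edgeR adjusted p = 0.04), a call made in 1 of the 6 repeats without 1 library. DESeq2 called 2 genes, edgeR with the trend in transcript length removed 3, and an edgeR fit over all 36 libraries 14. Without the first cis SSP library 7 of the 44 were higher and 11 lower, against 21.9% and 19.2% of the genes tested. In that fit IRF1 changed by 0.53 ± 0.0958, from a mean of 10.5 to 15.2 CPM, IFIT1 by 0.40 ± 0.0786, from 14.7 to 19.3 CPM, and IFIT2 and IFIT3 by 0.45 and 0.51, while EIF2AK2, OAS3 and IFITM3 fell by 0.28, 0.39 and 0.26. These values were chosen after they had been seen. IFIT1 at 19 to 19.8 CPM in cis SSP with carboplatin stood below its level in every wt and cis library, the lowest of which was 172 CPM.

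Serine and glycine deprivation without drug was compared with complete medium in each line. In wt, 14 of the 44 genes were lower and 1 higher, against 25.1% and 24.1% of the 14284 genes tested, and the changes were small. IFI27 went from 5.54, 6.49 and 5.82 to 3.04, 3.89 and 3.79 CPM (-0.73 ± 0.133), IFI6 from 15.5 to 17.6 to 10.1 to 10.4 CPM (-0.67 ± 0.0794), ISG15 from 30.9 to 34.1 to 20.3 to 22.8 CPM (-0.60 ± 0.061) and IFIT3 from 59.4 to 63.6 to 42 to 43.9 CPM (-0.52 ± 0.0431). The groups did not overlap for any of these 4, which were chosen as the largest falls, and for 18 of the 36 tested in all. The share over all genes is not given here. OAS3, IFITM3, IRF1, IFIT5, IFITM2 and BST2 fell by 0.44 down to 0.21, and GBP2 rose by 0.43 ± 0.141. In a fit over all 36 libraries 4 calls were made in place of 15. Of 39 further interferon-stimulated genes 14 fell and 2 rose, CXCL11 by -1.05.

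In cis cells genes were called in both directions with deprivation. Of the 44 genes 32 were tested, 12 were higher and 9 lower, against 37.6% and 37.4% of the 14122 genes tested, with a median log2 fold change of 0.03 against 0.01 over all genes, so that the share that was higher lay at that of all genes. OASL went from 1.30 to 1.32 up to 4.98 to 6.09 CPM (2.12 ± 0.175). DDX60 went from 1.91, 3.03 and 2.26 to 9.03, 9.74 and 8.82 CPM (1.94 ± 0.138, edgeR adjusted p = 3.27e-17). IRF1 rose from 14.1, 16.7 and 17.1 to 42.4, 42.4 and 39.5 CPM (1.40 ± 0.0642), SP100 from 2.18 to 3.03 up to 6.24 to 8.24 CPM (1.39 ± 0.149) and IFIH1 by 1.09 ± 0.142. RSAD2 held 4 counts in complete medium and 72 without serine and glycine, a ratio of 16.4 (6.14 to 61.9). In wt under the same deprivation, OASL, DDX60, SP100 and IFIH1 had log2 fold changes of -0.03 to 0.01 that were not called, IRF1 was lower and RSAD2 was not tested. The difference between the lines in the response to deprivation was not tested. The levels of DDX60, IRF1 and SP100 in deprived cis cells lay below those of every untreated wt library.

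The 9 that fell in cis included IFI6, from 13.5 to 14.7 down to 2.52 to 3.94 CPM (-2.10 ± 0.117), UBE2L6, from 58.9 to 61.8 down to 34 to 35.6 CPM (-0.76 ± 0.0477), and IFI35, IFITM3, EIF2AK2, OAS3 and ISG15, by 0.61 to 0.53. IFIT1 fell by 0.27 ± 0.0299 while IFIT3 and IFIT2 rose by 0.59 and 0.34. The listed IFIT genes thus again moved in opposite directions. BST2 had no counts in deprived cis cells. ISG20 rose by 1.70 ± 0.167 and RNF213 fell by 1.40. Of the 39 further interferon-stimulated genes 29 were tested, of which 13 rose and 11 fell, against 37.6% and 37.4% of all genes tested. All 3 epithelial markers tested rose, and that list summed to 16.7 to 20 CPM in complete medium and 44.9 to 48.5 CPM without serine and glycine. The stromal list summed to 3560 to 3666 and 801 to 833 CPM. Each sum was mostly 1 gene. KRT18 had 260 to 333 counts in complete medium and 791 to 830 without serine and glycine, and COL3A1 53857 to 65865 and 15138 to 15340. Markers that passed the filter only through their level in deprived cells had to differ, so these counts describe the lists. The part of these lists in the changes above was not tested.

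In cis SSP cells none of the 44 genes was called with deprivation when all libraries were used (edgeR; 1 had an unadjusted p under 0.05, and DESeq2 called 0), where 0.0218% of the 13736 genes tested were higher and 0% lower. Without the 2 libraries that stood apart 2 were higher and 8 lower, against 18.9% and 17% of the genes tested. ISG15 then went from 25.4 and 26 to 13.1 and 15.6 CPM (-0.85 ± 0.0859), IFI6 from 21.2 and 20.5 to 10.9 and 9.92 CPM (-1.01 ± 0.0921) and IFITM3 from a mean of 167 to 137 CPM (-0.29 ± 0.0396). ISG15, IFI6 and IFITM3, chosen among the 8 that fell, were also called lower with deprivation in wt and in cis. The rest of the 8 and the 2 that rose are not compared between the lines here.

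Carboplatin under deprivation was the last comparison. In wt -SG cells 25 of the 44 genes were higher and 3 lower with the drug, against 34.3% and 34.6% of the 14467 genes tested, with a median log2 fold change of 0.73. TRIM22 rose from 6.13, 7.21 and 6.30 to 44.8, 45.9 and 46 CPM (2.83 ± 0.0799), IFIT3 from 42.4, 43.9 and 42 to 287, 271 and 290 CPM (2.75 ± 0.058) and IRF1 from 62.7 to 68.5 up to 261 to 266 CPM (2.02 ± 0.0561). GBP2 rose by 1.98 ± 0.11, IFI27 by 1.85 ± 0.153, OAS2 by 1.78 ± 0.0651 and IFIH1 by 1.62 ± 0.143. USP18, EIF2AK2 and DDX60, which fell with the drug in complete medium, were the 3 that fell here, by 0.63, 0.56 and 0.53. CXCL10 rose by 4.02 ± 0.193 and RIGI from 32.9 ± 1.02 to 82.1 ± 4.42 CPM, and the 12 immune markers summed to 2.26 to 2.85 CPM without and 21.5 to 23.3 CPM with the drug. The epithelial markers, of which 3 of 4 tested rose, summed to 2.16 to 2.38 and 22.1 to 23 CPM, and the stromal markers, of which 2 rose and 2 fell, to 1876 to 1910 and 2263 to 2748 CPM. Markers that passed the filter only through their level with the drug had to differ, so these counts describe the lists. The part of these lists in these changes was not tested.

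The change of wt cells with carboplatin was then compared between media, as the log2 change without serine and glycine minus that in complete medium. This difference was called positive for 14 of the 44 genes and negative for 0 (edgeR and DESeq2 alike), where 14.6% of the 15247 genes tested were positive and 13.1% negative. IFI27 had a difference of 1.39 ± 0.189 (edgeR adjusted p = 5.24e-05), IFI6 of 0.81 ± 0.14, ISG15 of 0.70 ± 0.12, IFIT3 of 0.67 ± 0.0611 and IFITM3 of 0.48 ± 0.103. A positive difference was not always a larger response, since IFI6 and IFITM3 fell in complete medium (-0.20 and -0.16) and rose without serine and glycine (0.62 and 0.33), and BST2, with a difference of 0.31 ± 0.0773, fell in complete medium (-0.26) and was not called without serine and glycine (0.05). This test uses the same wt and wt -SG libraries as the comparison of media above. With the drug, ISG15 was at 34.8 to 36.6 CPM in complete medium and 33.6 to 44.4 CPM without serine and glycine, and IFI6 at 13.7 to 14.4 and 13.6 to 18.3 CPM, so both ranges overlapped. TRIM22 (0.01), IFIT1 (0.02) and GBP2 (-0.03) were not called. In a fit over all 36 libraries 3 differences were called in place of 14.

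In cis -SG cells carboplatin raised 8 of the 44 genes and lowered 1, against 10.9% and 11.6% of the 14476 genes tested. SP100 rose from 8.24, 6.24 and 6.36 to 8.97, 9.18 and 10.8 CPM (0.57 ± 0.133) and STAT2 by 0.34 ± 0.0733, while IRF1 fell from 42.4, 42.4 and 39.5 to 35.8, 29.4 and 31.7 CPM (-0.27 ± 0.0546, edgeR adjusted p = 0.00317). ISG15, IFIT3, OAS3 and IFIT2 rose by 0.31 down to 0.15. TRIM22 and IRF7, which had a mean under 20 counts over the compared libraries, complete the 8. DESeq2 and a fit over all libraries each called 4 genes in place of 9, and the count was 3 or 4 without the third cis -SG carbo library or without any of the 3 cis -SG libraries. Without the 2 libraries with more reads on no feature, which left 1 treated library that is assumed to vary like the others, 5 were higher and 0 lower, against 7.61% and 6.91% of the genes tested, and 4 of the 8 that rose were among them. IRF1 was then not called, at -0.19. The difference from the change in complete medium, -SG minus complete, was positive for 7 genes and negative for 1, where 5.91% of the 14797 genes tested were positive and 6.17% negative. It was positive for GBP1 (1.40 ± 0.396), which had only 5 to 41 counts in these libraries and was called in neither medium alone. It was positive too for IFI6 (0.66 ± 0.188) and for OAS3 (0.54 ± 0.0998), which fell by 0.32 in complete medium and rose by 0.22 without serine and glycine. EIF2AK2 (0.19 ± 0.0512) fell by 0.20 in complete medium and was not called without serine and glycine. The difference was negative for IRF1 (-0.43 ± 0.103), which was not called in complete medium (0.17). DESeq2 called 4 of these differences, a fit over all 36 libraries 1, and the fit without the 2 libraries 5, against 3.77% of the genes tested positive and 4.95% negative.

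In cis SSP -SG cells no gene of the 44 was called with carboplatin when all libraries were used (edgeR; 7 had an unadjusted p under 0.05, DESeq2 called 1), where 1.17% of the 13541 genes tested were higher and 0.295% lower. Without the second cis SSP -SG library 6 were higher and 4 lower, against 21.1% and 19.9% of the genes tested. HERC5 then changed by 0.85 ± 0.0984, from a mean of 8.67 to 15.4 CPM, HERC6 by 0.90 ± 0.212, IRF1 by 0.65 ± 0.0925, from 11.3 to 17.4 CPM, IFIT3 by 0.55 ± 0.191, ISG15 by 0.49 ± 0.105 and IFIT1 by 0.48 ± 0.0899. The 4 that fell were IFI35, UBE2L6, STAT2 and IFITM2, by 0.77 down to 0.17. With carboplatin the highest IFIT3 level in cis SSP cells in either medium was 5.61 CPM, against 255 CPM or more in every wt library with the drug.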

How the data were processed

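RNA of A2780 wt, cis and cis SSP cells was sequenced by the authors as single reads from poly(A) RNA. The authors deposited HTSeq counts per gene over exons, raw and not normalized, after alignment with STAR to GRCh37.p13 with GENCODE annotation, per the methods and the labels. The strand setting of the counting is not given in the sources used here. Totals on genes were 13074937 to 20441582 per library, 3 entries that name no gene were left out, of which reads on no feature were 4.21% to 17.9% of a library, and 97.7% of the gene counts lay on protein-coding genes. Intervals of ratios of counts cover counting error only, since reads without molecular identifiers are not independent molecules.

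Groups were taken from the sample labels, replicates numbered in accession order. Each comparison was fitted with edgeR 4.0.16 (R 4.3.3) on its own libraries only, with TMM scaling, filterByExpr, robust quasi-likelihood tests and Benjamini-Hochberg adjustment over all genes tested, called at an adjusted p of 0.05. Differences between responses were interaction terms. CPM used TMM library sizes, and lengths were those of canonical transcripts. Intervals of ratios of counts were exact Clopper-Pearson intervals at 95%, and genes with no count in a group were set to 3 counts per library. Alternatives were DESeq2 1.42.0, its size factors, total counts, other filters and removal of the trend with transcript length by a lowess fit. Another was an edgeR fit over all 36 libraries at once. Each comparison was also refitted on its own libraries, leaving out each library in turn. Leaving out 2 pairs of libraries that stood apart, in the same kind of fit, was chosen after the data had been seen. The scripts were tested on simulated counts with 200 changed genes.

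The genes and lists were chosen with earlier results of these data known. Named genes were those called with a mean of at least 20 counts per library, up to 10 per direction by size, and values in every library were given for the 12 genes with the widest ratio of condition means whose highest was at least 5 CPM, with the lowest set to at least 0.1 CPM. Pathway genes were RIGI, IFNB1 and at most 3 called genes per direction, of which some are left out, and another gene that the rule named is not reported here. IRF1, IRF9, STAT2, IFITM2, IFITM3, IFIH1, OAS3, EIF2AK2, ISG15, UBE2L6, USP18, SAMD9L and JAK1, where named beyond this rule, were named after their values had been seen, to cover each role. Exon overlaps used GENCODE v44 on GRCh37. Of the 44 genes, 18 shared exon bases with another gene of the table, 14 of them with a gene on the opposite strand. The plots were drawn with Python 3.11.15 and matplotlib 3.10.9.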

Additional observations from a re-analysis of the deposited data

Results flagged for a closer look

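For 24 of the 44 genes the change with carboplatin was not the same in wt and cis, tested as an interaction (edgeR, adjusted p under 0.05), out of 38 tested. Of all 15300 genes tested 57.6% were called, and a fit over all 36 libraries called 15 of the 44. Among the named genes the difference, cis minus wt on the log2 scale, was most positive for USP18 (0.57), DDX60 (0.51) and EIF2AK2 (0.37) and most negative for TRIM22 (-2.11), OAS2 (-2.05) and IFIT3 (-1.85).

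The response of wt cells differed between media for 14 genes of 37 tested, where 27.7% of all genes tested were called, and for 3 in a fit over all 36 libraries. IFI27 had a difference, -SG minus complete, of 1.39, IFI6 of 0.81 and ISG15 of 0.70. The second wt -SG carbo library, where IFI27 was at 14.9 CPM against 11.9 and 10.9, moved with transcript length by -0.18 log2 units per doubling. Without it 15 genes were called, as with the trend in length removed, and the count was 12 to 15 without any 1 library.

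The response of cis cells differed between media for 8 genes of 34 tested, where 12.1% of all genes tested were called, for 4 by DESeq2 and for 1 in a fit over all 36 libraries. Among the 8 were GBP1 (1.40), IFI6 (0.66), OAS3 (0.54) and IRF1 (-0.43). GBP1 had only 5 to 41 counts in these libraries and was called in neither medium alone. IRF1 was at 39.5 to 42.4 CPM in cis -SG and 29.4 to 35.8 CPM in cis -SG carbo, and at 14.1 to 17.1 and 16 to 19 CPM in the same cells in complete medium.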

How the results depend on the processing

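No direction of a called value reversed. Of 132 values of named genes, 81 kept direction and call in every alternative run. The numbers of the 44 genes called were 5 for carboplatin in cis, 1 in cis SSP, 15 for deprivation in wt, 0 in cis SSP, 9 for carboplatin in cis -SG, 0 in cis SSP -SG, 24 for the difference between lines, 14 and 8 for those between media in wt and cis. One edgeR fit over all 36 libraries gave 0, 14, 4, 4, 4, 9, 15, 3 and 1 in that order. DESeq2 gave 2 for carboplatin in cis SSP, 4 in cis -SG, 1 in cis SSP -SG and 4 for the difference between media in cis. Removing the trend with transcript length gave 3 for carboplatin in cis SSP and 2 in cis SSP -SG, and no filter gave 1 in the latter. Without the 2 libraries that stood apart, deprivation in cis SSP gave 10. Without the 2 cis -SG carbo libraries with more reads on no feature, carboplatin in cis -SG gave 5 and the difference between media in cis 5, of which the first lost IRF1, SP100, STAT2 and OAS3. The cause of these shifts was not tested.

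Leaving out 1 library gave 31 to 32 calls for cis against wt, 11 to 24 for cis SSP against cis (main 18), 29 to 31 for carboplatin in wt, 4 to 5 in cis, 0 to 18 in cis SSP, 27 to 29 in wt -SG, 3 to 9 in cis -SG and 0 to 10 in cis SSP -SG. It gave 13 to 16 for deprivation in wt, 20 to 24 in cis and 0 in cis SSP in every case, and 22 to 25, 12 to 15 and 5 to 8 for the 3 differences. The cis SSP against cis count was 11 without the second or the third cis library, and that between media in cis was 5 without the second or the third cis -SG library.

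Under scaling by total counts the calls of LGALS3BP in cis SSP against cis, ISG15 for carboplatin in wt and STAT2 for the difference between lines were lost. The share of all called genes that were higher moved from 72.4% to 60.3% for carboplatin in cis SSP, from 48.4% to 61.1% in cis -SG and from 48.9% to 62.5% for the difference between media in cis. No paired analysis was possible because the labels carry no replicate numbers.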
